A study of Mus musculus with 14 samples.

Results

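The 38 Hox genes analysed here were taken by symbol from the 4 mouse Hox clusters: 10 genes of cluster A on chromosome 6, 10 of cluster B on chromosome 11, 9 of cluster C on chromosome 15 and 9 of cluster D on chromosome 2. They are 38 of 21887 protein-coding genes with a RefSeq position. Each gene was given the peaks that overlapped its body or the 5 kb on either side of it. Hox genes encode homeodomain transcription factors that give cells their position along the head-to-tail axis, and their order along each cluster follows the order of their expression along the body. In the forebrain they are normally silent. Silent clusters are a classic target of Polycomb repressive complex 2, in which EZH2 methylates histone H3 at lysine 27.

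The assay was ATAC-seq, which finds accessible DNA by where Tn5 transposase cuts it, in mouse neural stem cells cultured with EGF and FGF. Each of 7 groups had 2 libraries of 50000 cells. EV were empty-vector cells whose vehicle is given as DMSO for replicate 1 and PBS for replicate 2. ZR were cells carrying the ZFTA-RELA fusion, an ependymoma driver that joins a zinc finger protein to an NF-kB subunit, with a PBS vehicle label. ZR_DMSO were fusion cells with DMSO in the title but PBS in the treatment label. ZR_GSK343 were fusion cells given the EZH2 inhibitor GSK343 at 10 µM for 96 h. ZR_dmCitra were fusion cells with dmCitra in the title and citraconate, named in the series' design as an antagonist of the itaconate synthase ACOD1, at 10 mM in the label. DMSO_50K and Citraconate_50K form a separate library series. There the DMSO cells carry an empty-vector label and the citraconate cells, at 10 mM, that of the fusion: in this pair drug and line cannot be told apart. Citraconate times of 24 and 48 h are named without being tied to a library. Whether the 2 libraries of a group came from different cultures is not labelled, and p-values measure only the spread between them, which may be technical.

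The deposited lists held 12554 to 60472 peaks. Both ZR_DMSO lists were short (12554 and 21143 peaks, median width 226 and 186 bp), and the ZR_GSK343 lists differed from each other (19513 and 57634 peaks). Read depth is unknown from the lists, and a longer list can hold more Hox peaks for that reason alone. Lists were therefore compared after keeping the same number of peaks with the highest −log10 q. Among 10 neural stem cell markers EV lists had a peak at 9 in each, ZR lists at 6 and 6, and ZR_DMSO lists at 3 and 4. ZR_GSK343 lists had one at 5 and 8, ZR_dmCitra at 6 and 7, DMSO_50K at 7 and 7, and Citraconate_50K at 5 and 5. Pax6 had none in any list, and Sox2, a defining stem cell factor, had one in both EV lists and in ZR_dmCitra replicate 2 only. Peaks were found at 3 to 5 of 5 neuronal, 0 to 3 of 4 astrocyte, 1 to 4 of 4 oligodendrocyte lineage, 0 to 3 of 4 microglial and 0 to 4 of 4 fibroblast marker genes per list. Their part in the Hox values was not tested.

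Peaks seldom overlapped those Hox promoters that could be examined. RefSeq promoter windows (250 bases before to 50 after the start, GRCm38.p6) were at hand for 22 members, 24 windows in all, and 2 of these, at Hoxd3 and Hoxa6, overlapped a peak in any of the 14 lists. That is 8.33% of Hox windows, against 44.5% of all 32851 promoter windows and 13 of 27 windows (48.1%) of 35 other homeobox genes. The other 16 members, Hoxa4 among them, had no window and are not covered by these counts. The most widely shared Hox peak lay at the start of Hoxd3os1, an antisense RNA gene within the Hoxd3 locus, which had a peak in 13 of 14 lists. ATAC-seq reads carry no strand, so this peak cannot be assigned to Hoxd3 or to its antisense partner. The upstream 250 bases of these starts are shown, with Hoxa7 as a promoter whose window met no peak although one lay in the gene's body. Capitals mark CpG dinucleotides.
Hoxd3os1, chr2:74716131-74716380, minus strand: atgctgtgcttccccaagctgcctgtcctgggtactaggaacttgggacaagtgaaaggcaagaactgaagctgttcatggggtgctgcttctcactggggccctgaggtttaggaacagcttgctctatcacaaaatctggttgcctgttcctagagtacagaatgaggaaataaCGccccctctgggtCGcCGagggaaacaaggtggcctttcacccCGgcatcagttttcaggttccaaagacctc
Hoxd3, chr2:74711743-74711992, plus strand: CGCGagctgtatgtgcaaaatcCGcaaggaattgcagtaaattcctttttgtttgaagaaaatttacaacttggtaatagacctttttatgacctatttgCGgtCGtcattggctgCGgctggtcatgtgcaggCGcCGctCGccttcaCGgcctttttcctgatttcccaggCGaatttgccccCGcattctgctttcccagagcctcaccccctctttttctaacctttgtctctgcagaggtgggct
Hoxa6, chr6:52208673-52208922, minus strand: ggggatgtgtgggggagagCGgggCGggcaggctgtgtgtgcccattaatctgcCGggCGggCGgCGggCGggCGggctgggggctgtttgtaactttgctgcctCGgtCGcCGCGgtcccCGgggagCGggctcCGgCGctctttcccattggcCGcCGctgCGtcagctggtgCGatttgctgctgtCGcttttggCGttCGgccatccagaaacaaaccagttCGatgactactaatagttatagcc
Hoxa7, chr6:52218574-52218823, minus strand: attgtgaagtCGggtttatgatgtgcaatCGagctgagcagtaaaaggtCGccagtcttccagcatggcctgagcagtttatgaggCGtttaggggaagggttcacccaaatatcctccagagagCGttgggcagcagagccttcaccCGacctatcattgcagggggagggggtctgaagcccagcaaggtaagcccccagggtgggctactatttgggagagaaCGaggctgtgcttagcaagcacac
The Hoxd3os1 stretch held 4 CpG dinucleotides, that of Hoxd3 12, that of Hoxa6 24 and that of Hoxa7 7. Over the whole windows the median was 14.5 CpG for Hox genes, ranging from 4 to 45, and 7 for all promoters. These Hox windows thus held more CpG than promoters in general and met a peak less frequently. Searched on both strands, the HOX-PBX motif TGATNNAT was in 4 of the 24 windows (8.85% of all promoters), the AP-1 motif TGANTCA in 1 (7.81%), and the NF-kB motif (1.47%) and the CTCF core motif (0.557%) in 0. No Hox window held more than 1 of these motifs.

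Across all 14 lists 103 peaks fell in the Hox windows and merged into 27 regions, 122 to 1015 bp wide. Cluster D held 13 of them, cluster A 8, cluster C 5 and cluster B 1. A peak in any list was found for 21 of 38 members, comprising 8 of 10 in cluster A, 2 of 10 in cluster B, 5 of 9 in cluster C and 6 of 9 in cluster D. Neighbouring windows overlap, so 1 region can count for up to 3 genes. By position in the body axis, 6 of 11 members of paralog groups 1 to 4, 6 of 11 of groups 5 to 8 and 9 of 16 of groups 9 to 13 had a peak. For 5 members, Hoxa10, Hoxc10, Hoxc12, Hoxc13 and Hoxd4, the only list with one was ZR_GSK343 replicate 2.

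**Figure D1:**
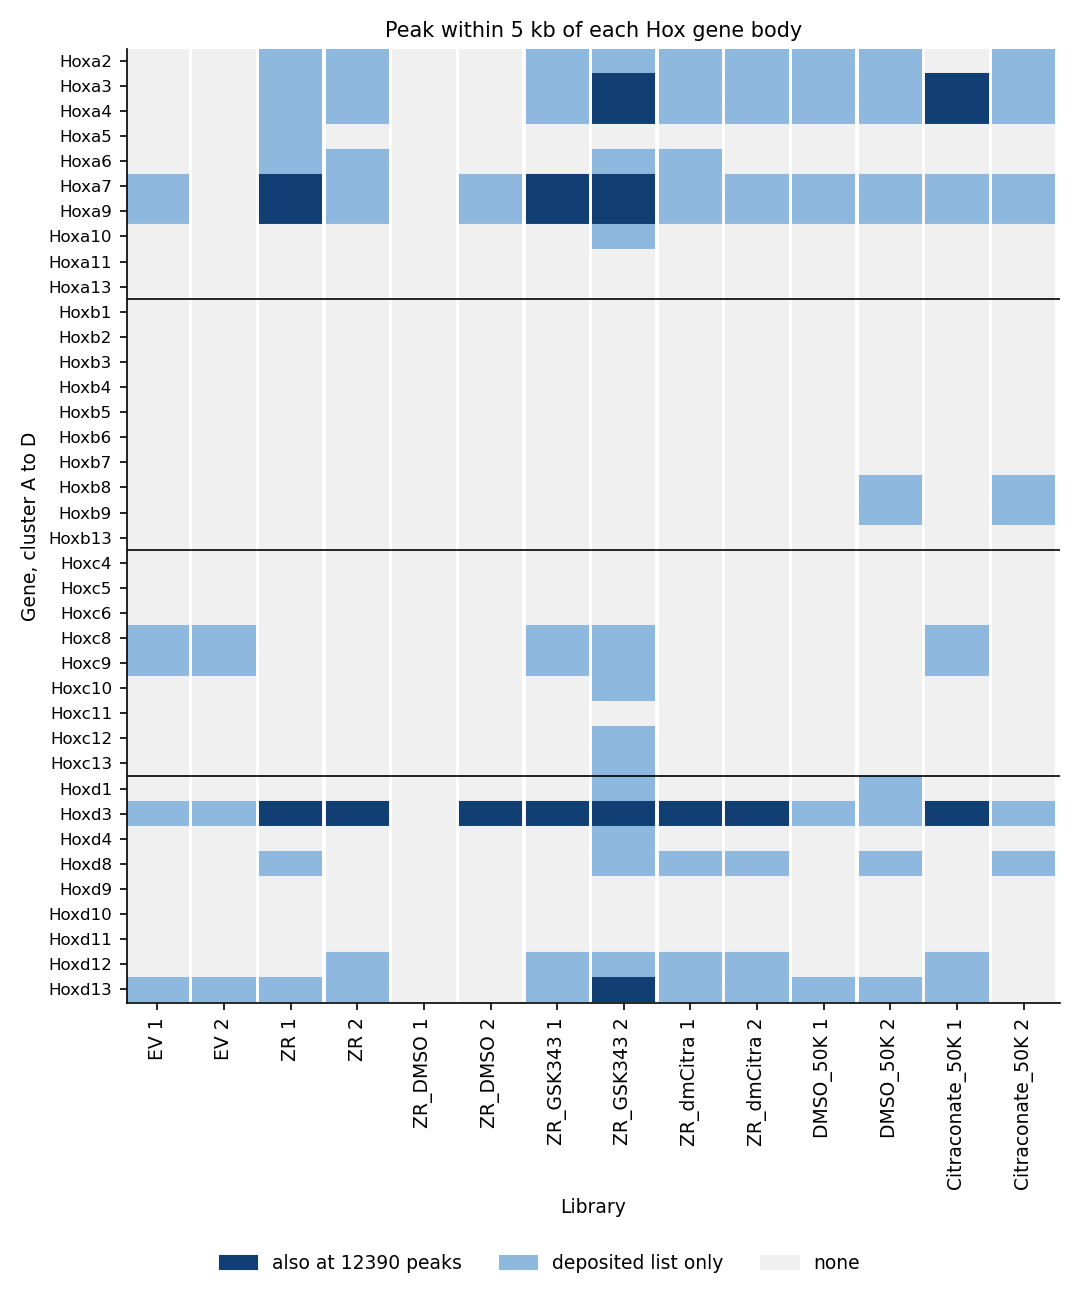
Presence of a peak in the body or within 5 kb of each of the 38 Hox genes (rows, clusters A to D) in the 14 libraries (columns); dark cells keep the peak when every list is cut to 12390 peaks, light cells have it in the deposited list only. Clusters A and D hold most filled cells, and 17 genes have no filled cell.

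Cluster B, which spans the Mir10a and Mir196a-1 genes, was almost without peaks: the single region lay 392 bp from Hoxb8 and was present in DMSO_50K replicate 2 and Citraconate_50K replicate 2. None of the 6 microRNA genes of the Hox clusters (Mir10a, Mir10b, Mir196a-1, Mir196a-2, Mir196b and Mir615) was overlapped by a peak in any list. Mir10b, inside cluster D, was the closest to a peak of the Hox windows, at 1489 bp. That peak was in ZR_GSK343 replicate 2 only, at rank 53552 of 57210.

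In the deposited lists, EV had 6 and 4 of 38 Hox genes with a peak, ZR 10 and 9, ZR_DMSO 0 and 3, ZR_GSK343 10 and 18, ZR_dmCitra 10 and 9, DMSO_50K 7 and 11, and Citraconate_50K 9 and 9. As a share this ran from 0% to 47.4%. All protein-coding genes ranged from 34.0% in ZR_DMSO replicate 1 to 72.6% in ZR_GSK343 replicate 2, and other homeobox genes from 20.0% to 88.6%. In every list the Hox share was below both. Hox genes are shorter than coding genes in general, with a median of 3721.5 against 17169 bp, so their windows offer less sequence for a peak.

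**Figure D2:**
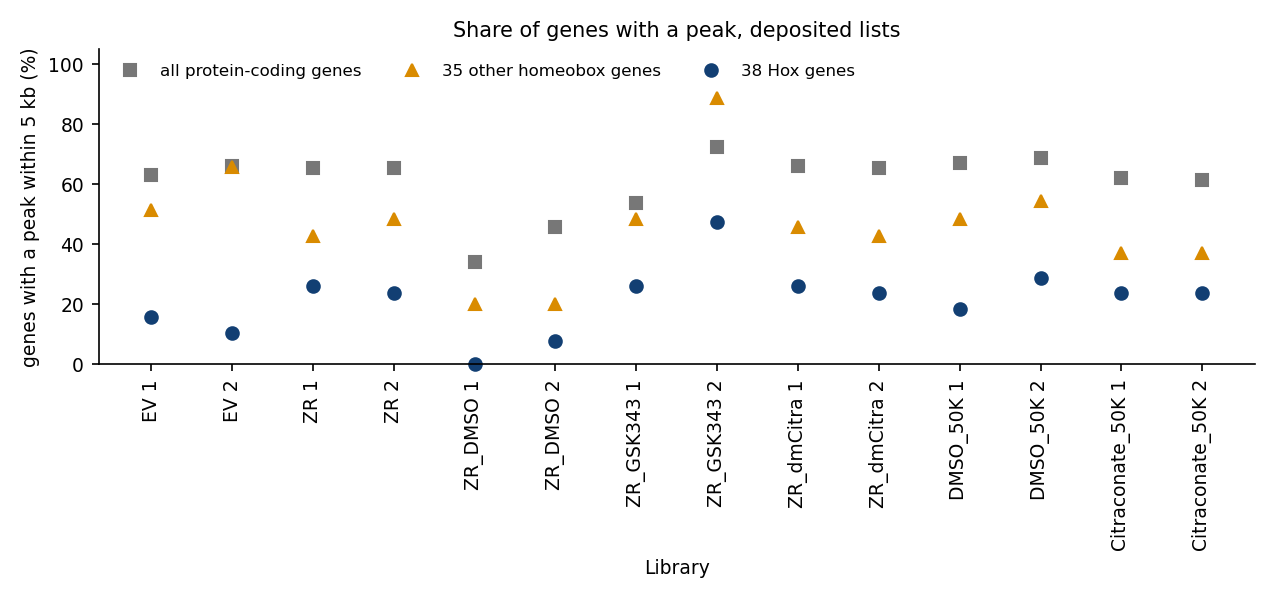
Percentage of 38 Hox genes (circles), 35 other homeobox genes (triangles) and all protein-coding genes (squares) with a peak in the body or within 5 kb, in each deposited list. The Hox share is the lowest of the 3 in all 14 libraries and reaches 47.4% in ZR_GSK343 replicate 2.

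GSK343 inhibits EZH2, the enzyme that writes the Polycomb mark known from silent Hox clusters. With lists cut to 12390 peaks, ZR_GSK343 replicates 1 and 2 had 3 and 6 Hox genes with a peak and ZR_DMSO replicates 0 and 1. The shares of all coding genes with a peak did not overlap either, at 44.8% and 50.3% against 34.0% and 33.9%, nor did other homeobox genes, at 12 and 11 of 35 against 7 and 5. For Hox genes the groups did not overlap, with a difference of 4 genes ± 1.58 (pooled SD, n = 2 each, two-sided exact permutation p = 0.333, the smallest that 2 against 2 libraries allow). Hoxa7, a trunk patterning gene, and Hoxa9, known for its part in leukaemia, were gained, meaning a peak in both treated lists and neither control list, and none was lost. Both calls rest on 1 region between the genes, chromosome 6, 52221360 to 52222221. Over all coding genes 15.9% were gained and 1.83% lost in this comparison, and the 2 gained among 6 Hox genes with a peak are read against that. Among marker genes Msi1 (neural stem cell) was gained, and Syp (neuron) and Aldh1l1 (astrocyte) were lost, and their part in the Hox values was not tested. The deposited list of ZR_DMSO replicate 2 also held this region, at rank 17705 of 20881. As deposited, the gains were instead Hoxa2, Hoxa3, Hoxa4, Hoxc8, Hoxc9, Hoxd12 and Hoxd13, 7 of 18 genes with a peak, where 14.9% of all coding genes were gained against these short control lists and 0.137% lost (0 Hox genes). With windows of 1 kb the count at equal length was 0. Without ZR_GSK343 replicate 1 it was 5.

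Untreated fusion cells gave longer control lists. At 19239 peaks ZR_GSK343 replicates had 10 and 8 Hox genes with a peak and ZR replicates 5 and 6, a difference of 3.5 genes ± 1.12 (pooled SD, n = 2 each, exact permutation p = 0.333). Hoxa3, Hoxa4, Hoxa7, Hoxa9 and Hoxd3 had a peak in all 4 lists. Hoxc8 and Hoxc9, which pattern the thoracic region, were gained and none was lost, against 8.39% gained and 2.27% lost of all coding genes. On chromosome 15, 9.48% of coding genes were gained. Among marker genes Msi1 and Col1a1 (fibroblast) were gained and Dcn (fibroblast) was lost, and their part was not tested. The deposited lists gave the same 2 gained and 0 lost of 19 Hox genes, with a background of 2.38% gained and 1.89% lost. In those lists the numbers of Hox genes with a peak overlapped, at 10 and 18 against 10 and 9 (difference 4.5, exact permutation p = 0.667). The difference was 2 genes at −log10 q of at least 5. At equal length it was 0.5 with 1 kb windows and 4 with 10 kb windows. Both rest on 1 region between them, chromosome 15, 102987356 to 102987827, lying 2712 bp from Hoxc8 and 2912 bp from Hoxc9. It ranked 18939 of 19239 in ZR_GSK343 replicate 1 and 17231 of 57210 in replicate 2, and was in neither deposited ZR list. Both EV lists held it too, at ranks 30591 and 38865, as did Citraconate_50K replicate 1 at 21524. At −log10 q of at least 5, and with 1 kb windows, neither gene was gained. Without ZR_GSK343 replicate 2 the count was 4. The ZR_GSK343 lists also had more of the other homeobox genes at this length, 17 and 17 of 35 against 12 and 12 in ZR, and of all coding genes, 53.7% and 57.7% against 49.8% and 49.9%.

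Set side by side at 19239 peaks, a view added after the data were seen and leaving out the ZR_DMSO lists, ZR_GSK343 had the most Hox genes with a peak in both replicates. EV had 1 and 1, ZR 5 and 6, ZR_GSK343 10 and 8, ZR_dmCitra 1 and 1, DMSO_50K 0 and 2, and Citraconate_50K 3 and 5. ZR and Citraconate_50K overlapped. EV, ZR_dmCitra and DMSO_50K overlapped as well. Only the ZR_GSK343 lists had a cluster C gene at this length, and no list had a cluster B gene. The share of all coding genes with a peak was 53.7% and 57.7% in ZR_GSK343, 54.4% and 54.7% in EV and 55.2% and 55.5% in Citraconate_50K. In ZR, ZR_dmCitra and DMSO_50K lists it was 47.5% to 50.5%. Some regions ranked just past this cut. The region beside Hoxa4 ranked 19372 in ZR_dmCitra replicate 2, and that 4392 bp from Hoxd13 ranked 19448 in replicate 1. The cut keeps the whole ZR_GSK343 replicate 1 list, weak peaks included, and removes peaks from the other lists. The region 4392 bp from Hoxd13 was kept in that list at −log10 q 5.99. In ZR replicate 1 it was cut, at rank 23695 with −log10 q 16.0. How far this shapes the Hox numbers was not tested.

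**Figure D3:**
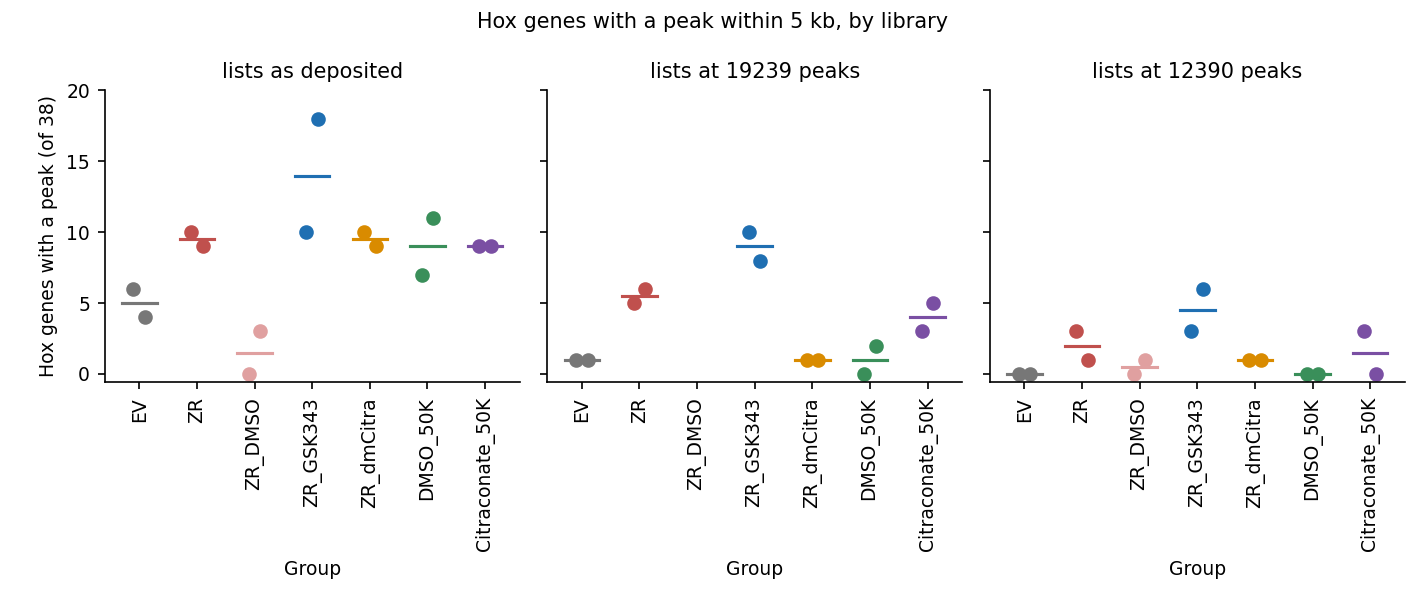
Number of the 38 Hox genes with a peak (y axis) in each library (points, with the group mean as a bar) for the lists as deposited, cut to 19239 peaks (without the ZR_DMSO lists) and cut to 12390. At 19239 peaks the ZR_GSK343 libraries stand at 10 and 8 and every other library at 6 or fewer.

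Many of the rarer regions came from ZR_GSK343 replicate 2, the longer list. Of 27 Hox regions 14 were in a single list, and 11 of those were in this one. They lay in Hoxa10, Hoxc9, Hoxc10, Hoxc13, near Hoxc12, in Hoxd1 and along the annotated Hoxd3 body, which reaches across Hoxd4. ZR_GSK343 replicate 1 had 7 Hox peaks, and replicate 2 held all 7 of its regions. These were 3 in cluster A, 1 in cluster C and 3 in cluster D, and 5 of the 7 were in both ZR lists as well.

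Between fusion and empty-vector lists of equal length, the Hox genes called lay in cluster A. At 34989 peaks both ZR lists had 8 Hox genes with a peak and the EV lists 6 and 2, a difference of 4 genes ± 2 (pooled SD, n = 2 each, exact permutation p = 0.333). Hoxa3, Hoxa4 and Hoxa6 were gained and none was lost, 3 of 11 Hox genes with a peak. The Hoxa3 body holds the regions behind the Hoxa4 and Hoxa6 gains, so these 3 calls are not separate. Hoxa3 was no longer called with 10 kb windows, nor Hoxa6 with 1 kb windows. Of all coding genes 4.24% were gained and 5.97% lost, and on chromosome 6 6.23% and 6.11%. At 19239 peaks the share of all coding genes with a peak was 49.8% and 49.9% in ZR and 54.4% and 54.7% in EV. As deposited, Hoxa2, Hoxa3, Hoxa4 and Hoxa6 were gained (4.74% of all coding genes) and Hoxc8 and Hoxc9 lost (3.79%). Neural stem markers Sox2, Prom1 and Sox1, 3 of 9 with a peak, were also lost in ZR at equal length, as were 2 of 3 microglial markers (P2ry12 and Csf1r) and 1 of 3 astrocyte markers (Aqp4), and their part in the Hox values was not tested. The other homeobox genes had 1 gained (Lhx9) and 6 lost (Gbx2, En1, Dlx2, Gsx2, Gsx1 and Dlx5) of 22. Without EV replicate 1 the gained Hox genes were 5, and the difference in number was 6 genes without EV replicate 1 and 2 without replicate 2.

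The Hoxa4 gain came from a region at chromosome 6, 52191828 to 52192409, inside the long Hoxa3 annotation. It lay 125 bp from the higher-coordinate edge of Hoxa4 at 52191703, the side on which all cluster A genes with a promoter window, each on the minus strand, have their start. It ranked 13139 and 13401 in the ZR lists and was in neither deposited EV list nor either ZR_DMSO list. All 10 libraries of the other 5 groups had it. Hoxa4 was the member whose call was kept in all 12 alternatives. Among these, leaving out a library and the replicate block cannot remove a gained call. The region behind Hoxa6, 52211229 to 52211919, was in both ZR lists, ZR_GSK343 replicate 2 and ZR_dmCitra replicate 1. A region in the Hoxa7 body, 52217052 to 52217784, was in both ZR and neither EV list, but Hoxa7 itself was not called because the region between Hoxa7 and Hoxa9 was in EV replicate 1, at rank 33842 of 34989. A further cluster A region, 52158135 to 52158960, lay 3457 bp from Hoxa2, a hindbrain patterning gene. Both deposited lists of ZR, ZR_GSK343, ZR_dmCitra and DMSO_50K held it and neither EV list did, and at 34989 peaks it was in ZR replicate 2 only. DMSO_50K carries the empty-vector label of EV, yet both its lists had the cluster A regions at Hoxa2, Hoxa4 and between Hoxa7 and Hoxa9. Whether the label, the library series or the list length goes with this was not tested.

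**Figure D4:**
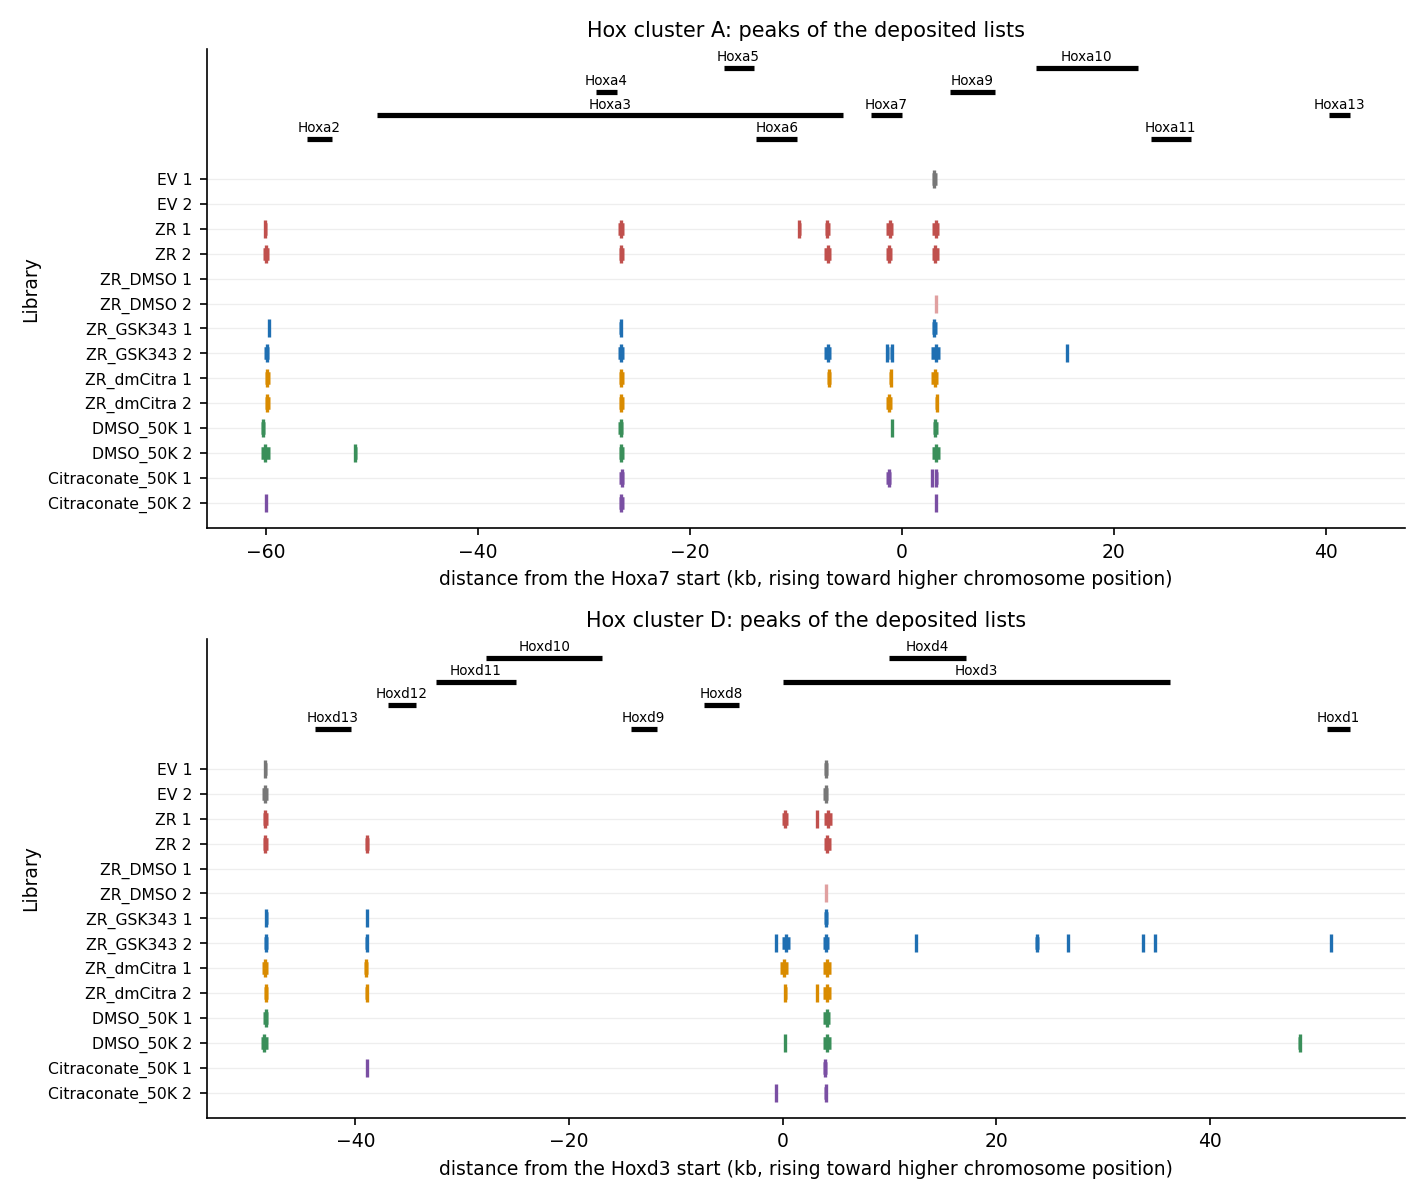
Peaks of the deposited lists (coloured marks, 1 row per library) in clusters A and D by distance in kb from the Hoxa7 or Hoxd3 start, with gene bodies in black; thin marks give each peak's centre. The region beside Hoxa4 is marked in all rows except those of EV and ZR_DMSO.

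At 34989 peaks Hoxd3 and Hoxd13 of cluster D had a peak in both fusion and both empty-vector lists. At 12390 peaks Hoxd3 had one in both ZR lists and neither EV list. The Hoxd3os1 region, chromosome 2, 74715774 to 74716629, ranked 16636 and 13637 in EV, 3143 and 2947 in ZR, 6330 and 5077 in ZR_GSK343, 6353 and 7837 in ZR_dmCitra, 24739 and 33035 in DMSO_50K and 9203 and 14568 in Citraconate_50K. ZR_DMSO replicate 2 had it at rank 6082 and replicate 1 lacked it. Ranks from lists of different length show no change by themselves, but at 19239 peaks this was the only Hox region of both EV and both ZR_dmCitra lists. A region 4392 bp from Hoxd13, a digit patterning gene, at 74663176 to 74663833, was in both lists of EV, ZR, ZR_GSK343, ZR_dmCitra and DMSO_50K and in no ZR_DMSO or Citraconate_50K list. Between Hoxd13 and Hoxd12, 74672774 to 74673234 was in both lists of ZR_GSK343 and ZR_dmCitra, in ZR replicate 2 and in Citraconate_50K replicate 1.

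**Figure D5:**
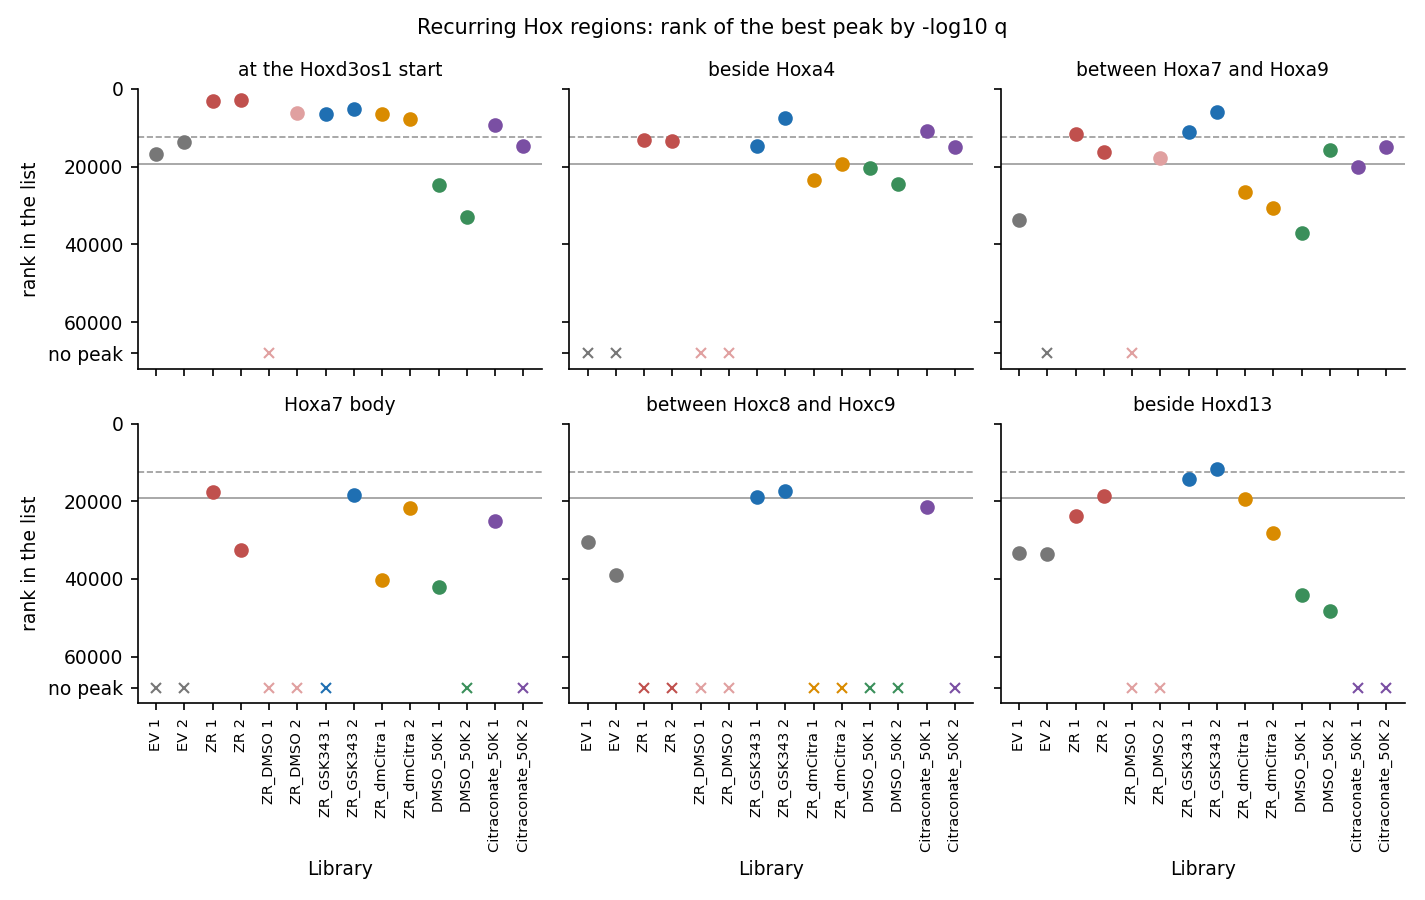
Rank of the best peak in its own deposited list (y axis, strongest at the top), at 6 recurring Hox regions in the 14 libraries; lines mark ranks 12390 (dashed) and 19239 (solid), and crosses mark libraries with no peak. At the Hoxd3os1 start 13 libraries have a peak, with ZR at ranks 3143 and 2947.

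In the first series the citraconate comparison with ZR_DMSO rested on a single Hox gene. At 12390 peaks ZR_dmCitra replicates had 1 and 1 Hox genes with a peak and ZR_DMSO 0 and 1, the gene being Hoxd3 each time, with a difference of 0.5 ± 0.5 (pooled SD, n = 2 each, exact permutation p = 1). No Hox gene was gained or lost, against 9.19% and 2.91% of all coding genes. As deposited, Hoxa2, Hoxa3, Hoxa4, Hoxd8, Hoxd12 and Hoxd13 were gained, where 24.1% of all coding genes were, and 0 were lost (0.179%). Deposited ZR_dmCitra and ZR lists were of similar length, 44196 to 45920 peaks, and each had 10 and 9 Hox genes with a peak. In the ZR_dmCitra lists the region beside Hoxa4 ranked 23399 and 19372, and in ZR 13139 and 13401. The region between Hoxa7 and Hoxa9 ranked 26507 and 30653, and in ZR 11574 and 16177. These ranks were not tested.

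In the second series Citraconate_50K had 9 and 9 Hox genes with a peak and DMSO_50K 3 and 4 at 29432 peaks, a difference of 5.5 genes ± 0.5 (pooled SD, n = 2 each, exact permutation p = 0.333). No gene was gained or lost by the rule of both lists against neither (all coding genes 5.61% and 2.57%), although Hoxa7, Hoxa9 and Hoxd3 had a peak in both Citraconate_50K lists and in 1 DMSO_50K list. The count was 1 without DMSO_50K replicate 1, 2 without replicate 2, and 4 without either Citraconate_50K replicate. The Citraconate_50K lists also differed from each other. Replicate 1 had the regions at Hoxc8 and Hoxc9, Hoxd12 and Hoxd13, and replicate 2 those at Hoxa2, Hoxb8 and Hoxb9, and Hoxd8. Hoxa3 and Hoxa4 were in all 4 lists. Among marker genes at 29432 peaks, Dcx (1 of 5 neuronal) and Dcn (1 of 4 fibroblast) were lost and none was gained. As deposited, Prom1 and Fabp7 (2 of 7 neural stem cell) and Aldh1l1, Gja1 and Aqp4 (3 of 3 astrocyte) were lost as well. The part of these markers in the Hox values was not tested. At 19239 peaks the shares of all coding genes with a peak did not overlap either. They were 55.2% and 55.5% in Citraconate_50K against 47.8% and 47.5% in DMSO_50K. As deposited the means did not differ (9 and 9 against 7 and 11, exact permutation p = 1), the DMSO_50K lists being longer, and 0 Hox genes were gained (0.442% of all coding genes) or lost (6.36%).

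Genes that act with or on Hox genes commonly had peaks: 5 to 9 of 9 cofactors of Hox proteins, 7 to 11 of 11 PRC2 genes, 4 to 12 of 12 PRC1 genes and 3 to 7 of 9 Hox activators per deposited list. With GSK343 against ZR_DMSO at equal length, 1 of 8 Hox cofactor genes with a peak was gained (Meis1), 2 of 11 PRC2 genes (Mtf2 and Ezh1), 3 of 6 genes for Hox activators (Ash1l, Kmt2a and Kdm6b) and 3 of 15 other homeobox genes (Gbx1, Rax and Emx2), where 15.9% of all coding genes were gained. None of these lists lost a gene. Against ZR the gains were 1 of 9 cofactors (Meis3), 1 of 11 PRC2 genes (Ezh1), 3 of 12 PRC1 genes (Phc2, Cbx2 and Cbx7) and 0 of 7 activators, with 3 of 22 other homeobox genes gained (Gbx2, Dlx2 and Gbx1) and 1 lost (Lhx9), against 8.39% and 2.27% of all coding genes. Between ZR and EV no cofactor, PRC2, PRC1 or activator gene was gained or lost (4.24% and 5.97% of all coding genes). With citraconate against ZR_DMSO, Pknox2 and Phc3 were gained and Pbx2, Suz12, Cbx8 and Men1 lost (9.19% and 2.91% of all coding genes). In the second series the only call among these 4 lists was the gain of Ash1l (5.61% of all coding genes). Of 26 matched neighbours of the clusters, Tax1bp1 was gained with GSK343 and with citraconate against ZR_DMSO, Skap1 was lost with GSK343 against ZR, and Ttll6 was gained in ZR against EV.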

How the data were processed

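Per the file contents, whose peak names start with MACS2, the authors called peaks on each library separately. The submitters' processing notes name mm10, BWA, SAMtools and Picard, with no version. The sources used here do not state the caller's settings or a Tn5 shift. In the deposited lists a peak has the authors' score, fold enrichment (a ratio) and −log10 p-value and q-value, used only to describe or rank peaks within a list. No read counts were at hand, so no counting interval can be given.

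Peaks on chromosomes 1 to 19, X and Y were kept and ranked by −log10 q. Gene positions came from RefSeq on GRCm38.p6, the coordinates of mm10, and all 38 members matched. A gene had a peak where 1 bp or more overlapped its body or 5 kb either side. For 5 comparisons the 4 lists were cut to the shortest. Genes gained or lost were counted, with all protein-coding genes having a peak in any of the 4 lists as background, and the number of Hox genes per library was compared by exact permutation. ZR is the control of one comparison and the test group of another, and ZR_DMSO is the control of 2 comparisons, so these share libraries. Calls were tested on simulated lists. Named are all called members, and by cluster the regions and genes in most libraries or in both lists of a single group. The members and lists were chosen with earlier results of these data known. Alternatives were deposited lists, a −log10 q minimum of 5, fold in place of q for ranking, windows of 1 and 10 kb, at least 50% of the peak inside the window, a replicate block, one length for all 14 lists, one length for the 12 lists other than ZR_DMSO (chosen after seeing the data), and leaving out each library. Python 3.11.15 with pandas 2.3.3, numpy 2.4.6 and matplotlib 3.10.9 was used. The PRC1 genes called with GSK343 against ZR_DMSO are not reported here.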

Additional observations from a re-analysis of the deposited data

How the results depend on the processing

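The difference in the number of Hox genes with a peak kept its sign in 57 of 60 alternatives. It fell to 0 in the second series with deposited lists and with −log10 q of at least 5, and without ZR_DMSO replicate 1 for ZR_dmCitra. Several alternatives could not change the sign. The replicate block uses the same counts, and the common length of all 14 lists repeats the cut of both ZR_DMSO comparisons. Where groups do not overlap, leaving out a library cannot change it either. That holds for every comparison except ZR_dmCitra against ZR_DMSO. Leaving out a library gave 2.5 to 5.5 for ZR_GSK343 against ZR_DMSO, 2.5 to 4.5 against ZR, 2 to 6 for ZR against EV, 0 to 1 for ZR_dmCitra and 5 to 6 for the second series. Counts of gained genes moved more. With deposited lists ZR_GSK343 against ZR_DMSO had 7 and ZR_dmCitra 6. At −log10 q of at least 5 the gains were 5, 6 for ZR_dmCitra, 6 for ZR against EV and 0 for ZR_GSK343 against ZR. With 1 kb windows both ZR_GSK343 comparisons had 0, and with 10 kb that against ZR_DMSO had 4. Leaving out a library gave gains of 2 to 5 for ZR_GSK343 against ZR_DMSO, 2 to 4 against ZR, 3 to 5 for ZR against EV, 0 to 1 for ZR_dmCitra and 1 to 4 for the second series. By the rule of both lists against neither, leaving out a library can only keep or raise a count. ZR against EV lost 2 genes, Hoxc8 and Hoxc9, with deposited lists, 2 at −log10 q of at least 5, and 0 to 2 on leaving out a library. With −log10 q of at least 5 the second series lost 1, and at one length for the 12 lists other than ZR_DMSO, an alternative chosen after seeing the data, it gained 3 and Hoxa6 was no longer gained in ZR. Peaks ranked by fold and the 50% overlap moved no count past 1.5 times. The causes were not tested. With a replicate block the differences were 4, 3.5, 4, 0.5 and 5.5 genes in the order of the report, with an exact sign-flip p of 0.5 or 1. The numbers pair nothing that the labels name, and 2 pairs cannot show more. Unknown read depth and lists of 12390 to 60346 peaks limit every statement that a Hox peak is absent.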
